A study of Mus musculus with 9 samples.

Results

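The metallothionein genes Mt1, Mt2 and Mt3 were followed through the mouse cells of patient-derived orthotopic xenografts (PDOXs) of glioblastoma. The members were chosen by their symbols, and all 3 of 3 are listed in each of the 9 files, among 12580 symbols that every file lists. In all 9 files together, 29457 unique molecular identifiers (UMIs) were counted for Mt1, 9861 for Mt2 and 8936 for Mt3. Drop-seq isolates each cell in a droplet with a barcoded bead and counts 1 UMI for each captured 3′ transcript end, so that levels do not scale with transcript length.

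The samples were 7 PDOXs without drug (P3, P8, P13, T16, T101, T192 and T233), 1 further PDOX of P3 given temozolomide (TMZ, an alkylating drug; per the study's methods by gavage, with control mice given the vehicle), and 1 normal brain (Nu-NB). A PDOX is grown from patient tumor organoids placed in the right frontal cortex of a nude mouse, so tumor cells are human and the cells studied here are of the mouse host. All hosts and the mouse of Nu-NB were nude mice, which lack a thymus and most T cells. T192 and T233 come from 1 patient, and the 7 PDOXs are thus not fully independent. The age of the mice is not given in the sources used here.

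Total UMIs per file were between 1294068 and 8410580, and 14618 cells were kept, 722 to 2770 per sample. FACS was used for P8 and Nu-NB, per the study's methods, while mouse and human cells of the remaining samples were separated by MACS with a mouse cell depletion kit. These same 2 files use an older release of gene symbols, so the sort and the release cannot be told apart. Nu-NB is a single sample, so the spread in every comparison with it is that between PDOXs, and its own spread is unknown. Clusters made without Mt1, Mt2, Mt3 and the genes of the lists below were named from marker genes, and the names end in "-like". The 329 cells of a mixed cluster and 2637 cells of unnamed clusters entered no comparison. At most 11 cell barcodes were shared by any pair of samples.

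Metallothioneins are small proteins very rich in cysteine that bind zinc and copper through their thiol groups. Mt1 and Mt2 are found in many tissues and are induced through the zinc-sensing transcription factor MTF1, by glucocorticoids and by oxidative stress. Mt3 was first described as a growth inhibitory factor of the brain and responds little to metals. In the brain, Mt1 and Mt2 are known mainly from astrocytes, and Mt3 has been described in both astrocytes and neurons.

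The genes lie side by side on the plus strand of mouse chromosome 8 (GRCm38.p6, RefSeq). Mt3 spans chr8:94152607-94154148, Mt2 spans chr8:94172618-94173567 and Mt1 spans chr8:94178883-94180327. The gap between Mt3 and Mt2 is 18469 bases and that between Mt2 and Mt1 is 5315 bases. In GENCODE M21, the antisense gene Gm45774 (chr8:94170748-94173412, minus strand) overlaps Mt2, and it is listed in 0 of the 9 files. Whether strand was used in counting is not given in the sources used here.

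The coding sequences are shown because the 3 genes are near relatives whose reads have to be told apart. They are read from the GENCODE M21 transcripts Mt1-201, Mt2-201 and Mt3-201, each with 3 coding exons, and are given without the stop codon. Capitals mark the codons for cysteine (TGC or TGT).
Mt1: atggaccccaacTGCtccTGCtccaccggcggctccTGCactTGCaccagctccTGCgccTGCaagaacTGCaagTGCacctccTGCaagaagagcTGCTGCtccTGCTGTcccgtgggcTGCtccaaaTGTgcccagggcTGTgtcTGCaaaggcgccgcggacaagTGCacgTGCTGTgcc
Mt2: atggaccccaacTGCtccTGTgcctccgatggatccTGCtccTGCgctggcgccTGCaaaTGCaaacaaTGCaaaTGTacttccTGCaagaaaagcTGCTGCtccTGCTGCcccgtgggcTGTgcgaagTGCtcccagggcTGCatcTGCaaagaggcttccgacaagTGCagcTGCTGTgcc
Mt3: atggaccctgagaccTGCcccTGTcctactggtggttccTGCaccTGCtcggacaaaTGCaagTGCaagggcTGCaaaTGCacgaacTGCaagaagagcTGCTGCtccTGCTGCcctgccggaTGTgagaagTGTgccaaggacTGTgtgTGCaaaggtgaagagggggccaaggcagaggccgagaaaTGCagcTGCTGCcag

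Each of the 3 coding sequences holds 20 cysteine codons, out of 61 codons in Mt1, 61 in Mt2 and 68 in Mt3. The coding sequences of Mt1 and Mt2 are identical at 145 of 183 aligned bases (79.2%), and those of Mt1 and Mt3 at 141 of 206 (68.4%). The longest run that Mt1 and Mt2 share is 20 bases, and that of Mt1 and Mt3 is 27 bases. Since Drop-seq reads start near the 3′ end, the last 60 bases of the transcripts were compared as well, where Mt1 and Mt2 matched at 34 of 65 aligned positions (52.3%). A read in the shared coding stretches could still be split between the genes, and the levels of Mt1, Mt2 and Mt3 and their ratios are uncertain to that extent.

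The stretches before the transcript starts of Mt1 and Mt2 are shown because each was the gene most like the other over sums of a sample and a class (Pearson's r = 0.82). Over the astrocyte-like sums alone, neither was among the 5 genes most like the other. These stretches are the 250 bases before the transcript start used for each gene in the RefSeq promoter table (GRCm38.p6, plus strand), chr8:94178839-94179088 for Mt1 and chr8:94172368-94172617 for Mt2. The Mt1 stretch overlaps the gene's span above, which begins with a longer transcript. Capitals mark the core of the metal response element bound by MTF1, searched as TGCACNC or TGCGCNC on either strand.
Mt1 upstream: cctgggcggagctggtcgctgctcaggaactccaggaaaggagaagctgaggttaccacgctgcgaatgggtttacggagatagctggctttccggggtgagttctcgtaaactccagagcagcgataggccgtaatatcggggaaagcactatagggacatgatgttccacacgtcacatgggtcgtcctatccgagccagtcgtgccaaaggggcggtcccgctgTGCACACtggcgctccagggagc
Mt2 upstream: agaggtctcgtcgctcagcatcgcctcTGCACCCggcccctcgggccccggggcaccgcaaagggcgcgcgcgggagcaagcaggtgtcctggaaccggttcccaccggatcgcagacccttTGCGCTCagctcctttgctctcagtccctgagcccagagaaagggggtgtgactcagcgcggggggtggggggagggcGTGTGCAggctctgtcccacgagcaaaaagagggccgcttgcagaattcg

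With the 50 bases after the start included, the window of Mt1 held 3 cores, that of Mt2 held 4 and that of Mt3 held 1. Over 32851 mouse windows of the same 300 bases, 25.7% held at least 1 core, 1.97% at least 3 and 0.517% at least 4. These are matches of letters and not tested sites.

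Across cell classes, Mt1 was the most abundant member in astrocyte-like cells, and by the median over PDOXs astrocyte-like cells held the highest level of each of the 3 members among the named classes. For Mt3 this does not extend to unnamed clusters, of which one held 1714 CPM. Levels are given as CPM, the UMIs of a gene scaled by all UMIs on the 12580 shared symbols in the summed cells of a class, for samples with at least 10 cells of it. In astrocyte-like cells of 6 PDOXs, Mt1 was between 3412 (P8) and 9464 CPM (T192), with a median of 6666 CPM. Mt2 was between 1098 (P8) and 4324 CPM (T101), with a median of 2155 CPM. Mt3 was between 721 (T101) and 3694 CPM (T192), with a median of 1599 CPM. P3 held only 3 astrocyte-like cells and was left out of this class. T101 and T233 contributed 45 and 61 such cells, against 739 in P13.

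**Figure D1:**
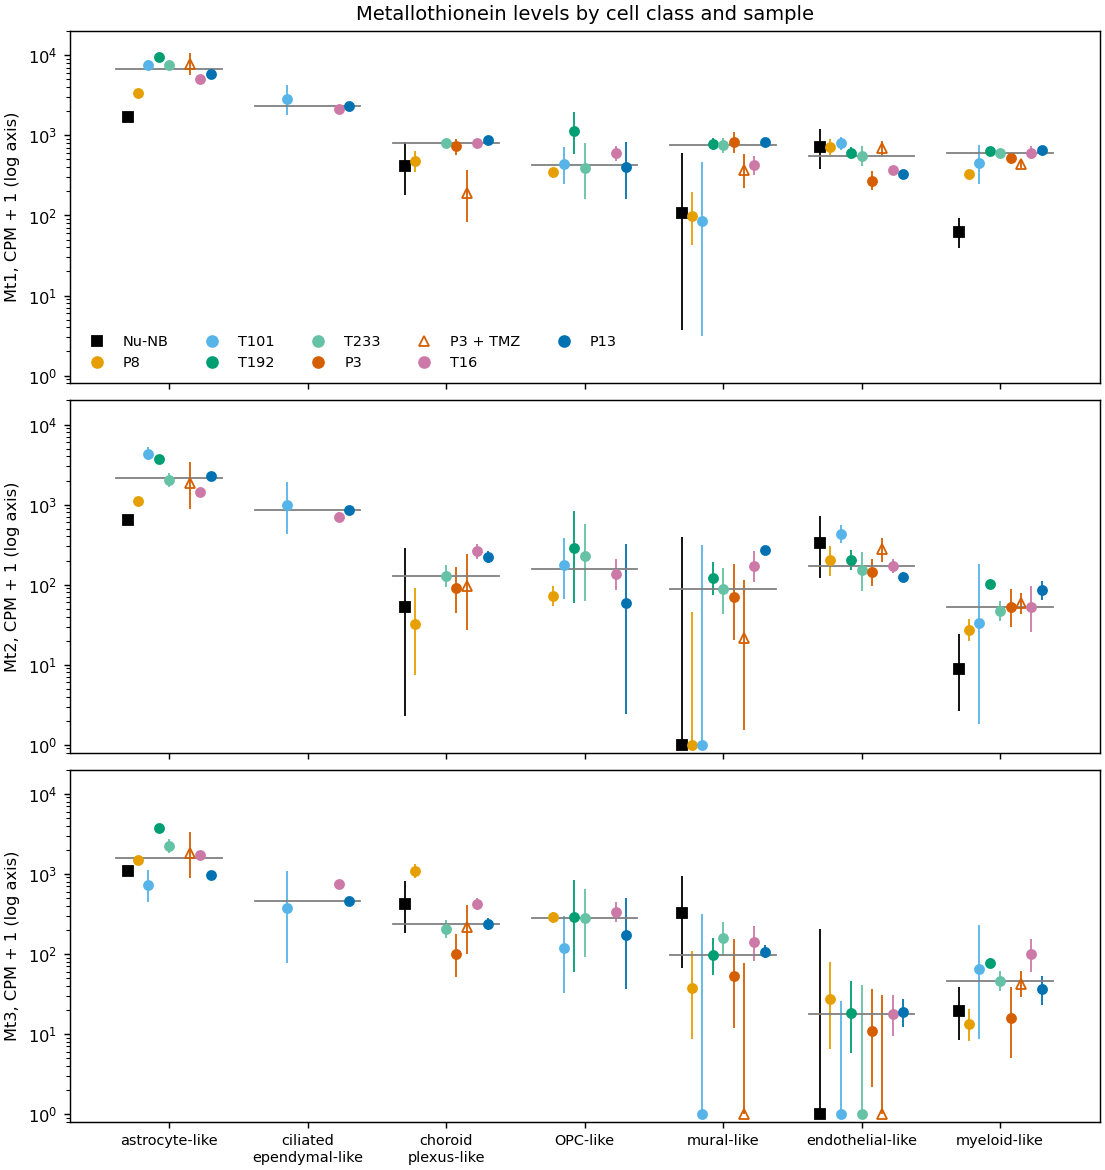
Level of Mt1 (top), Mt2 (middle) and Mt3 (bottom) as CPM + 1 on a log axis, for each cell class with at least 10 cells in a sample; bars are exact Poisson intervals of 95% and cover counting error only, and grey lines are medians over PDOXs. Astrocyte-like cells lead in each panel, and Nu-NB (black squares) lies below every PDOX for Mt1 in astrocyte-like and myeloid-like cells but not in endothelial-like cells.

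Ciliated ependymal-like cells, which line the ventricles, came next for Mt1 and Mt2. In the 3 PDOXs with at least 10 such cells, Mt1 was at 2138, 2342 and 2821 CPM and Mt2 at 701, 868 and 981 CPM. For Mt1 and Mt2 these ranges overlapped neither those of astrocyte-like cells nor those of the next class in the order by median. Fibroblast-like cells of P13 (37 cells) held Mt2 at 1228 CPM, above the ependymal-like range. For Mt3, the ependymal-like range (368 to 739 CPM) overlapped that of astrocyte-like cells, through T101.

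Below these, the order of the classes was not resolved for Mt1. The median over PDOXs was 801 CPM in choroid plexus-like, 749 CPM in mural-like, 692 CPM in cycling, 599 CPM in myeloid-like, 556 CPM in endothelial-like, 420.4 CPM in OPC-like and 265 CPM in fibroblast-like cells, and the ranges of all neighbors in this order overlapped. Choroid plexus-like cells make cerebrospinal fluid, mural-like cells are pericytes and smooth muscle cells of vessels, and OPC-like cells are oligodendrocyte progenitors. For Mt3, OPC-like cells followed at a median of 282 CPM (117 to 336 CPM, n = 6) and choroid plexus-like cells at 237 CPM (99.8 to 1093 CPM, n = 5). Endothelial-like cells were last, with a median of 16.8 CPM and a range of 0 to 26.5 CPM over 7 PDOXs.

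The difference between astrocyte-like cells and each of 4 other classes was tested within the PDOXs. Over 6 PDOXs, log2 CPM of Mt1 was higher in astrocyte-like than in myeloid-like cells by 3.52 ± 0.40 (SD, n = 6). The difference was 3.51 ± 0.69 (SD, n = 6) from endothelial-like, 3.56 ± 0.51 (SD, n = 6) from OPC-like and 4.04 ± 1.18 (SD, n = 6) from mural-like cells. For Mt2 the difference was largest from myeloid-like cells, at 5.33 ± 0.65 (SD, n = 6), and for Mt3 from endothelial-like cells, at 6.99 ± 1.23 (SD, n = 6). Each of the 12 differences was positive in 6 of 6 PDOXs, and each had an exact two-sided sign-flip permutation p of 0.0312, the smallest that 6 PDOXs allow (0.0312 after Benjamini-Hochberg adjustment over 12 tests). T192 and T233 come from 1 patient, and counted as 1 they leave 5 units, whose smallest possible p is 0.0625, so these calls rest on treating them as separate.

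The share of cells with a UMI was compared at equal depth, with each cell thinned to 500 UMIs and shallower cells left out. In astrocyte-like cells of the PDOXs, 79.0% held a UMI of Mt1 (1135 of 1437 cells, with 602 left out), 49.2% one of Mt2 and 41.5% one of Mt3. Without thinning, these shares were 82.7%, 56.4% and 52.1%. Cells were pooled over PDOXs for these shares, and of the 1437 cells 692 were from P13 and 468 from P8. As medians over PDOXs, the thinned shares were 84.5%, 54.0% and 50.5%. In Nu-NB, 49.3% of 475 astrocyte-like cells held Mt1 (exact binomial interval 44.7 to 53.9%; 381 cells left out), 26.1% held Mt2 and 37.9% held Mt3. The PDOXs ranged from 70.7% (P8) to 90.9% (T101) for Mt1, from 33.8% to 72.7% for Mt2 and from 18.2% to 70.0% for Mt3, so Nu-NB lay below all of them for Mt1 and Mt2 and inside their range for Mt3. All intervals cover counting error only.

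**Figure D2:**
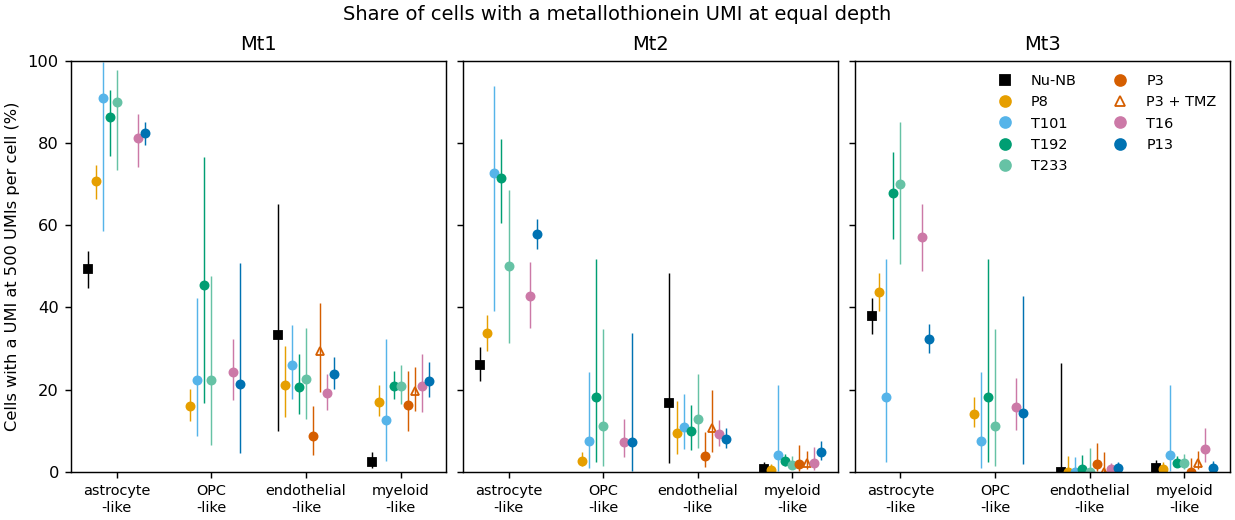
Percent of cells with at least 1 UMI of Mt1, Mt2 or Mt3 after thinning every cell to 500 UMIs, by class and sample, with exact binomial intervals of 95%; classes with under 10 cells of at least 500 UMIs in a sample are left out. Astrocyte-like cells reach 90.9% for Mt1, Mt3 is near 0 in endothelial-like cells, and Mt1 in myeloid-like cells is at 2.34% in Nu-NB against 12.5 to 22.2% in the PDOXs.

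Within astrocyte-like cells, Mt2 and Mt3 were found more often in cells with Mt1 than in cells without. At 500 UMIs per cell, Mt2 was detected in 63.0% of the P13 cells with Mt1 and in 33.9% of those without. The same shares were 39.9% and 19.0% in P8, 46.4% and 27.6% in T16, and 74.3% and 54.5% in T192, where only 11 cells lacked Mt1. In Nu-NB, they were 32.1% and 20.3%. Mt3 was detected in 63.2% of the T16 cells with Mt1 and 31.0% of those without, in 48.3% and 32.8% in P8, in 34.5% and 22.3% in P13, and in 41.5% and 34.4% in Nu-NB. Cell to cell, Pearson's r between Mt1 and Mt2 UMIs was 0.16 over 475 cells of Nu-NB, 0.35 over 468 cells of P8, 0.37 over 692 cells of P13, 0.45 over 154 cells of T16 and 0.69 over 81 cells of T192, with T233 (30 cells) at 0.19. Between Mt1 and Mt3, r was 0.03 in Nu-NB and between 0.14 (T16) and 0.37 (T233) in these PDOXs. The counts are sparse and the cells of a sample share a library, so these are descriptions.

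Astrocyte-like cells with a UMI of Gfap, the intermediate filament of reactive astrocytes, were compared with those without. Mt1 was higher in the cells with Gfap in 6 of 6 PDOXs, by a median ratio of 1.49 (1.14 to 2.20). Mt2 was higher in 5 of 6 PDOXs (median ratio 1.42, 0.885 to 2.76) and Mt3 in 6 of 6 (1.34, 1.06 to 1.57). In Nu-NB, Mt1 was at 1220.4 CPM in the 24 cells with Gfap and at 1709.5 CPM in the 832 cells without. Cells with a Gfap UMI held more UMIs per cell in each of these samples, and the part of depth in this difference was not tested.

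The comparison of PDOXs with Nu-NB asked whether the levels of metallothioneins in host cells differed from those of a brain without tumor. UMIs of all cells of a class were summed in each sample and compared by edgeR's quasi-likelihood test over all genes tested, with a gene called at an FDR of at most 0.01 and |log2FC| of at least 1. No member was called in any of 5 classes, while 4 of 14 tests had an unadjusted p under 0.05 (Mt1 and Mt2 in astrocyte-like and in myeloid-like cells) and DESeq2 called 1 (Mt1 in myeloid-like cells). Of all genes tested, 11.6% had an unadjusted p under 0.05 in astrocyte-like, 21.3% in myeloid-like, 11.4% in endothelial-like, 10.6% in mural-like and 8.45% in choroid plexus-like cells. The test had little power with 1 brain: in simulated counts, it recovered 46.5% of genes changed 8-fold in astrocyte-like, 24.5% in myeloid-like and 0.5% in endothelial-like cells, and for a 4-fold change 8%, 4.5% and 0% were recovered.

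In myeloid-like cells, Mt1 was at 60.7 CPM in Nu-NB (23 UMIs in 661 cells) and between 325 (P8) and 662 CPM (P13) in the 7 PDOXs, with a median of 599 CPM. The groups did not overlap. The log2FC was 3.36 ± 0.63 (SE), with an adjusted p of 0.0396 by edgeR, which misses the threshold of 0.01. Mt1 ranked 12th of 8710 genes by p, and 4.5% of genes had a larger log2FC. Of all genes tested, 12.9% were higher in every PDOX than in Nu-NB, and 0.0918% (8 genes) were called. Without P8, Mt1 passed the threshold (log2FC 3.51, adjusted p = 0.00226 by edgeR), as it did with DESeq2 on all samples (log2FC 3.36, adjusted p = 3.12e-07). Those fits also called more genes, 135 of 7814 (1.73%) without P8 and 199 of 8710 (2.28%) with DESeq2. Over all settings tried on the PDOXs, some of which left out cells or a PDOX, its log2FC lay between 3.16 and 3.53, and P8 alone gave 2.42.

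Mt2 in myeloid-like cells was at 7.91 CPM in Nu-NB (3 UMIs) and between 26.4 (P8) and 100.1 CPM (T192) in the PDOXs. All 7 PDOXs were higher, with a log2FC of 3.12 ± 0.91 (SE) and an adjusted p of 0.0802 by edgeR. This rests on the 3 UMIs of Nu-NB, and among cells with at least 500 detected genes Nu-NB held none, so that the fitted log2FC of 8.63 there is no measure of size. Mt3 was at 18.5 CPM in Nu-NB (7 UMIs) and between 12.1 (P8) and 97.7 CPM (T16) in the PDOXs, of which 5 of 7 were higher (log2FC 1.52 ± 0.98, adjusted p = 0.392 by edgeR). The groups overlapped for Mt3.

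Myeloid-like cells of Nu-NB and of the PDOXs came mostly from different clusters. In Nu-NB, 94.6% of them were in cluster 2, led by P2ry12, Gpr34 and Tmem119, markers of homeostatic microglia, and this share was between 4.63 and 68.8% in the PDOXs. The level of Mt1 was therefore also taken within cluster 2 alone. It was 53.2 CPM in Nu-NB (19 UMIs in 625 cells), against 239 (P8) to 1066 CPM (T101, 7 UMIs in 13 cells) in the PDOXs, with a median of 498 CPM. In cluster 2 of P13, with 278 cells, Mt1 was at 528 CPM, and in T16, with 148 cells, at 498 CPM. All 7 PDOXs were above Nu-NB there. In cluster 1, led by Spp1, Lpl and Cst7, which had fewer than 10 cells in Nu-NB, Mt1 had a median of 569.9 CPM over the PDOXs (219.9 to 678 CPM). In the small cluster 21 (102 cells), led by Mrc1 and F13a1, Mt1 was at 782 CPM in T16 and 1767 CPM in P13. Nu-NB held 159 CPM there (3 UMIs in 28 cells).

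**Figure D3:**
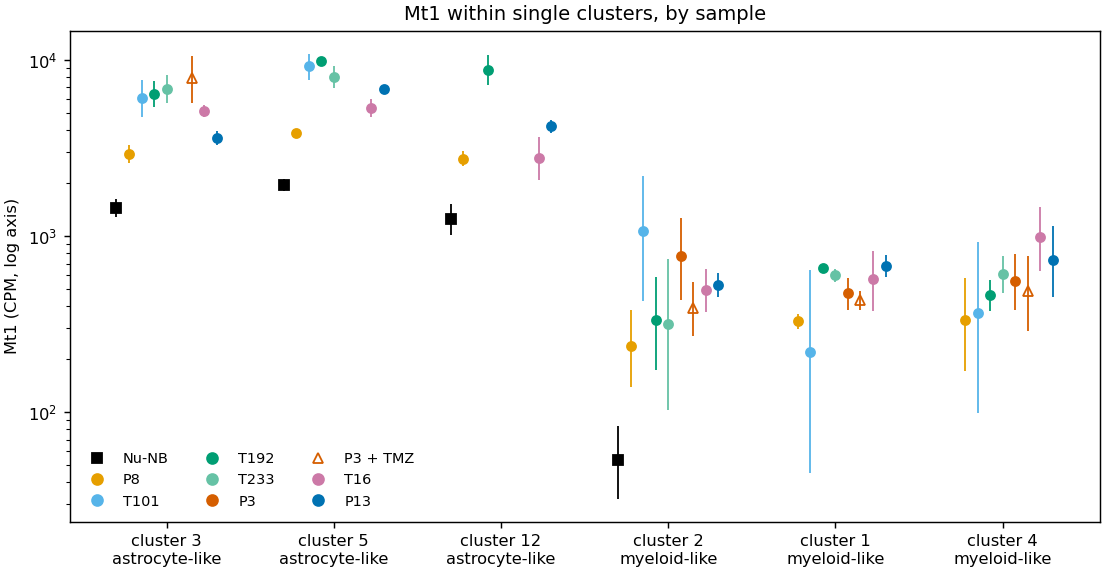
Level of Mt1 (CPM, log axis) within clusters 3, 5 and 12 of astrocyte-like and clusters 2, 1 and 4 of myeloid-like cells. Samples with at least 10 cells in the cluster are drawn, with exact Poisson intervals of 95%. Cluster 21, also myeloid-like, is not drawn. In clusters 3, 5, 12 and 2, Nu-NB (black squares) is the lowest sample, at 1443, 1963, 1253 and 53.2 CPM.

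In astrocyte-like cells, Mt1 was at 1688 CPM in Nu-NB (988 UMIs in 856 cells), below all 6 PDOXs (3412 to 9464 CPM). The log2FC was 1.80 ± 0.61 (SE), with an adjusted p of 0.355 by edgeR and of 0.0568 by DESeq2. Mt2 was at 644 CPM in Nu-NB, likewise below all 6 PDOXs (1098 to 4324 CPM), with a log2FC of 1.77 ± 0.66 (SE) and an adjusted p of 0.385 by edgeR. Mt3 was at 1094 CPM in Nu-NB and higher in 4 of 6 PDOXs, with a log2FC of 0.61 ± 0.65 (SE) and an adjusted p of 0.748 by edgeR. Of all 5578 genes tested, 14.3% were higher in every PDOX, and 0% were called (647 genes had an unadjusted p under 0.05, and DESeq2 called 1). When cells were gated one by one by their markers instead of by cluster, the log2FC fell to 0.782 for Mt1 and 1.0004 for Mt2.

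Mt1 of Nu-NB was the lowest in each of the 3 astrocyte-like clusters. In cluster 5, led by Slc1a2, Aldoc and Slc1a3, Mt1 was at 1963 CPM in Nu-NB and between 3849 and 9928 CPM in 6 PDOXs. In cluster 12, led by Agt, Itih3 and Slc6a11, it was at 1253 CPM against 2755 to 8840 CPM in 4 PDOXs.

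In endothelial-like cells, Mt1 was at 709.5 CPM in Nu-NB (13 UMIs in 35 cells) and between 272 (P3) and 801 CPM (T101) in 7 PDOXs, of which 2 were higher. The log2FC was 0.04 ± 0.65 (SE) for Mt1 and -0.21 ± 0.80 (SE) for Mt2 (adjusted p = 0.994 and 0.937 by edgeR), beside a median of 0.66 over all 5455 genes tested. Mt2 was at 327 CPM in Nu-NB (6 UMIs) and lower in 6 of 7 PDOXs (204 ± 103 CPM, SD, n = 7). The sign of the Mt1 value changes with the scaling (-0.43 with library totals alone), and Mt2 then is at -0.68. With so few UMIs in Nu-NB, a difference was not detectable at this depth. In this class 33.7% of genes were higher in every PDOX and 0% were called (621 had an unadjusted p under 0.05, and DESeq2 called 2). Mt3 had no UMI in Nu-NB and was too low to be tested. The class joins 2 clusters with unlike levels over all samples. Cluster 0, led by Cxcl12 and Ly6c1, held Mt1 at 856 CPM and Mt2 at 320 CPM. Cluster 8, led by Ctla2a, held 152 and 76.7 CPM, and 249 of the 556 cells of T16 were in it. Levels were not taken within these clusters by sample, and the part of their mix in the comparison with Nu-NB was not tested.

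In mural-like cells, 1 UMI of Mt1 was counted in the 16 cells of Nu-NB (108 CPM), and the PDOXs ranged from 84.5 to 826 CPM. In 5 PDOXs it was higher, and in T101 and P8 it was not (log2FC 3.68 ± 1.79, adjusted p = 0.464 by edgeR, beside a median of 0.89 over all genes). With library totals alone, this was 2.53. Mt2 had no UMI in Nu-NB, P8 and T101. Mt3 was at 323 CPM in Nu-NB (3 UMIs) and lower in all 7 PDOXs (0 to 157 CPM), with a log2FC of -0.44 ± 1.15 (SE) and an adjusted p of 0.895 by edgeR (-1.59 with library totals alone). In choroid plexus-like cells, Mt1 was at 416 CPM in Nu-NB (8 UMIs in 17 cells) and between 474 and 869 CPM in 5 PDOXs (log2FC 1.69 ± 0.77, adjusted p = 0.517 by edgeR, beside a median of 1.01 over all genes). With library totals alone in place of TMM factors, this log2FC was 0.90. Genes higher in every PDOX made up 18.9% in mural-like and 32.2% in choroid plexus-like cells, and 0% were called in either (535 and 515 genes had an unadjusted p under 0.05).

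P8 is the only PDOX sorted in the same way as Nu-NB. In myeloid-like cells, Mt1 in P8 was 5.36 times that in Nu-NB (3.53 to 8.54, interval of counting error), and in astrocyte-like cells 2.02 times (1.87 to 2.18). Mt2 was 1.70 times higher in astrocyte-like cells (1.498 to 1.94), and Mt3 1.37 times (1.23 to 1.52). In endothelial-like cells the ratio for Mt1 was 1.01 (0.558 to 1.98). P8 had the lowest Mt1 of all PDOXs in astrocyte-like and in myeloid-like cells, below the 5 and the 6 others. The part of the cell sort in these levels was not tested, and between Nu-NB and the remaining PDOXs the sort and the tumor cannot be told apart.

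Values that could move with dissociation were read beside these. In astrocyte-like cells, the median share of mitochondrial UMIs was 6.65% in Nu-NB against 5.89 to 17.3% in PDOXs, and Fos was at 34.2 CPM against 23.0 to 165 CPM. Other genes of the heat shock and dissociation list, named after their values were seen, lay on either side of Nu-NB. Jun was at 219 CPM in Nu-NB against 154 to 413 CPM, higher in 4 of 6 PDOXs, and Hspd1 at 220 CPM against 143 to 216 CPM, higher in 0 of 6. Hspa8 was at 178 CPM against 46.3 ± 70.7 CPM (SD, n = 6), higher in 1 of 6. Junb was at 3.42 CPM in Nu-NB against 80.5 ± 53.8 CPM (SD, n = 6) in PDOXs and Atf3 at 3.42 against 64.8 ± 62.5 CPM (SD, n = 6), each with 6 of 6 PDOXs higher. Egr1 was at 6.84 against 88.0 ± 84.6 CPM (SD, n = 6), with 5 of 6 higher, and Ier2 was listed at 0 against 36.6 ± 48.3 CPM (SD, n = 6). None of these passed the test (adjusted p between 0.339 and 0.884 by edgeR). In myeloid-like cells, that share was 3.24% in Nu-NB, below all 7 PDOXs (4.54 to 9.74%), the direction in which Mt1 also differed. Jun was higher there in Nu-NB (4199 CPM) than in any PDOX (869 to 3840 CPM), while Atf3 was at 150 CPM against 802 ± 322 CPM (SD, n = 7) and Ier3 at 34.3 against 285 ± 163 CPM (SD, n = 7), both with 7 of 7 PDOXs higher. Their part in the levels of Mt1 was not tested.

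Mt1 and Mt2 did not keep the same proportion in every class. In astrocyte-like cells, Mt1 had 2.84 times as many UMIs as Mt2 (median over 6 PDOXs, 1.75 to 3.66), and 2.62 times as many in Nu-NB. In endothelial-like cells the median ratio was 2.66 (1.87 to 3.64, n = 7). In myeloid-like cells it was 11.8 (6.37 to 14.0, n = 7), outside the range of astrocyte-like cells, and 7.67 in Nu-NB (23 against 3 UMIs). Mural-like cells (median 6.47, 2.48 to 11.8, 5 PDOXs with a UMI of Mt2) and choroid plexus-like cells (median 6.21, 3.08 to 15.3, n = 5) also had higher medians than astrocyte-like cells, with ranges that overlapped both. They were not tested.

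The log2 of this ratio was higher in myeloid-like than in astrocyte-like cells by 1.91 ± 0.58 (SD, n = 6), in 6 of 6 PDOXs, with an exact two-sided sign-flip permutation p of 0.0312, the smallest possible, and 0.0938 after adjustment over 3 classes, with the same limit for T192 and T233. Endothelial-like cells differed from astrocyte-like cells by -0.03 ± 0.33 (SD, n = 6; exact permutation p = 0.969), with single PDOXs between -0.69 and 0.20. OPC-like cells differed by 0.42 ± 0.82 (SD, n = 6; exact permutation p = 0.281). These tests were chosen after the ratios had been seen.

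**Figure D4:**
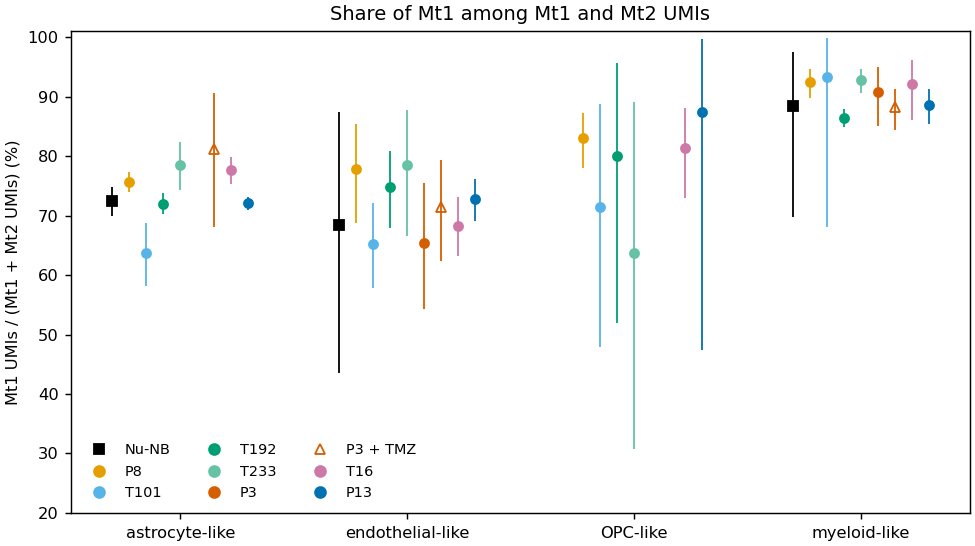
Mt1 UMIs as a percent of Mt1 and Mt2 UMIs together, by class and sample, with exact binomial intervals of 95%. Myeloid-like cells lie between 86.4 and 93.3% in the PDOXs, above the 63.6 to 78.6% of astrocyte-like cells.

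Mt3 was also read as a measure of astrocyte RNA in other classes. In droplet data, free RNA of lysed cells gives UMIs in cells that do not make it, and RNA from 1 source keeps its genes in 1 ratio. The summed level of a panel of astrocyte genes, among them Slc1a2, Mlc1, Ntsr2 and Gpr37l1, was set beside it (9 of the 10 chosen were in every file). Values are percents of the level in astrocyte-like cells of the same PDOX, as medians over PDOXs. Astrocyte-like cells were not the only cells with much Mt3: an unnamed cluster of 1010 cells held it at 1714 CPM, and at 500 UMIs it was found in 49.7 to 64.4% of the unnamed cells of T192, T233, P3 and T16. The share was 18.4% in T101, 12.4% in P13, 1.75% in P8, 0% in Nu-NB and 45.7% after TMZ. Genes annotated as processed or unprocessed pseudogenes took 2.33% of the UMIs of the cluster of 1010 cells and 1.91% of those of a second unnamed cluster with Mt3 at 850.1 CPM, against at most 1.33% in any other cluster. What these shares mean for the identity of the cells, and the part of these cells in the free Mt3 RNA, were not tested.

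In endothelial-like cells, Mt3 was at 0.728% of the astrocyte-like level (0 to 1.85%, n = 6) and the panel at 1.85% (1.17 to 2.02%). Mt1 was at 7.39% (5.69 to 20.97%) and Mt2 at 8.68% (5.51 to 18.5%), both above the panel in 6 of 6 PDOXs. Where Mt3 had a UMI, 24.5 UMIs of Mt1 were counted for each of Mt3 (18.9 to 34.8, 4 PDOXs), against 1.54 to 10.5 in astrocyte-like cells of the samples. The endothelial-like ratios rest on 3 (P8), 4 (T192), 11 (T16) and 24 (P13) UMIs of Mt3. At 500 UMIs per cell, 0.748% of 1337 endothelial-like cells pooled over the PDOXs held Mt3, and 21.1% held Mt1. Single PDOXs ranged from 0 to 1.96% for Mt3 and from 8.82 to 26.0% for Mt1.

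In myeloid-like cells, Mt3 was at 2.87% of the astrocyte-like level (0.813 to 8.90%, n = 6), the panel at 3.57% (2.26 to 5.23%) and Mt2 at 2.57% (0.742 to 3.75%). The highest Mt3 and the lowest Mt2 value are those of T101, and they rest on 2 UMIs and 1 UMI. Mt1 stood above the panel in 6 of 6 PDOXs, at 8.76% (5.93 to 12.1%), while Mt2 did so in 2 and Mt3 in 3 of 6. In Nu-NB, where astrocyte-like cells were 856 of 1774 cells, Mt1 in myeloid-like cells was at 3.59%, the panel at 2.92% and Mt3 at 1.69%. At 500 UMIs per cell, 1.81% of 1934 myeloid-like cells pooled over the PDOXs held Mt3, and 2.43% held Mt2. Single PDOXs ranged from 0 to 5.59% for Mt3 and from 0.518 to 4.85% for Mt2.

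**Figure D5:**
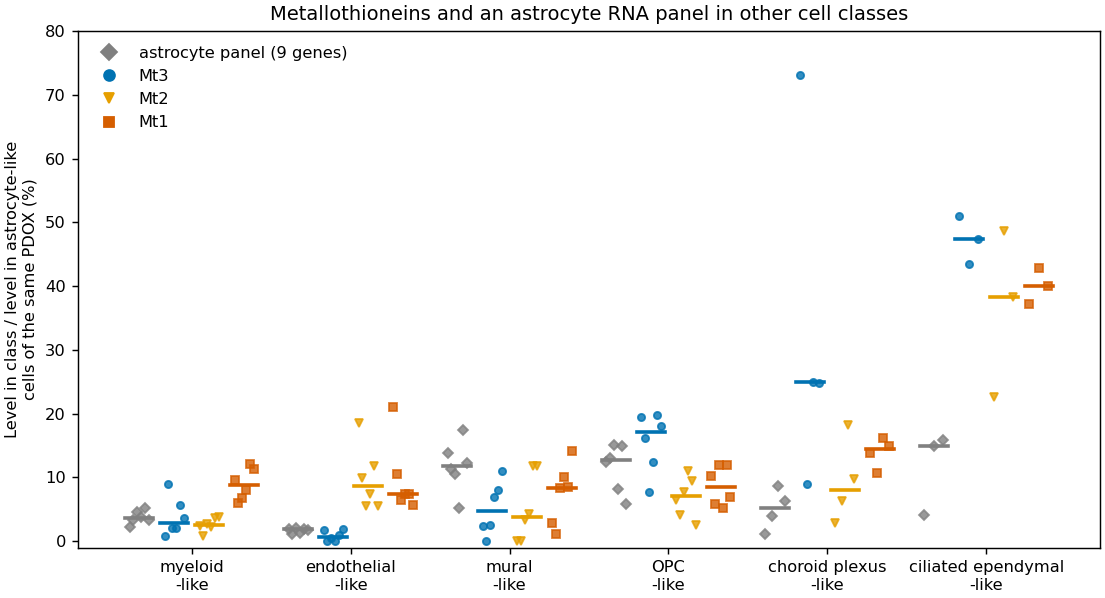
Level of Mt1, Mt2, Mt3 and the astrocyte panel in 6 other classes, as a percent of the level in astrocyte-like cells of the same PDOX; each point is a PDOX and lines are medians. Mt1 lies above the panel in myeloid-like and endothelial-like cells, Mt3 is at 0.728% in endothelial-like cells, and ependymal-like and choroid plexus-like cells hold more Mt3 than the panel.

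OPC-like cells held Mt3 at 17.1% of the astrocyte-like level (7.69 to 19.8%, n = 6), with the panel at 12.7% (5.87 to 15.1%). Mt1 and Mt2 were lower there, at 8.51% and 7.10%, and each was above the panel in 1 of 6 PDOXs. In T101, T192, T233 and P13, only 3 to 5 UMIs of Mt3 were counted in OPC-like cells of each. At 500 UMIs per cell, Mt3 was found in 14.2% of 584 OPC-like cells and Mt1 in 19.2%. Mt3 stood well above the panel in ependymal-like cells (47.5% against 14.9%, 3 PDOXs) and in choroid plexus-like cells (24.9% against 5.13%, 4 PDOXs). In choroid plexus-like cells of P8, 106 UMIs of Mt3 and 46 of Mt1 were counted, the only PDOX without drug with more Mt3 than Mt1 in that class. After TMZ, 9 UMIs of Mt3 and 8 of Mt1 were counted there in 11 cells. Mural-like cells held Mt3 at 4.78% (0 to 11.1%, n = 6), below the panel at 11.8% in 5 of 6 PDOXs.

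Barcodes with fewer than 200 detected genes were read as a second source of free RNA. In 8 samples (P13 had only 3 such barcodes), they held Mt1 at 414 to 1839.6 CPM, Mt2 at 119 to 587 CPM and Mt3 at 95.3 to 576 CPM. Mt1 exceeded Mt3 there by a factor of 1.80 in Nu-NB, 2.42 to 6.46 in PDOXs without drug and 5.71 after TMZ.

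TMZ was compared with P3 without TMZ in 4 classes, with 1 mouse on either side, so that no test is possible and the intervals cover counting error only. Whether the P3 sample without TMZ came from a vehicle control mouse of the same experiment is not given in the sources used here. In myeloid-like cells, Mt1 was at 435 CPM after TMZ (314 UMIs in 324 cells) and at 515 CPM without TMZ (139 UMIs in 256 cells), a ratio of 0.844 (0.689 to 1.04). Mt1 was higher after TMZ in endothelial-like cells, at 689 against 272 CPM, a ratio of 2.53 (1.78 to 3.62), and Mt2 at 276 against 144 CPM (1.92, 1.14 to 3.27). The 2 clusters of this class held Mt1 at 856 and 152 CPM and Mt2 at 320 and 76.7 CPM over all samples. How the cells of P3 with and without TMZ divided between these clusters was not examined, and its part in the ratios was not tested. In choroid plexus-like cells, Mt1 was lower after TMZ, at 189 CPM (8 UMIs in 11 cells) against 726 CPM (ratio 0.261, 0.109 to 0.539). That value also lies below the 474 to 869 CPM of the 5 PDOXs without drug that held at least 10 such cells. Mt3 in myeloid-like cells was at 41.5 CPM after TMZ (30 UMIs) and 14.8 CPM without (4 UMIs), a ratio of 2.80 (0.988 to 10.95), and its direction turned with gated cells (log2 ratio -1.33 against 1.34). In mural-like cells Mt1 was also lower (368 against 823 CPM, ratio 0.447, 0.245 to 0.785), but this direction turned when cells were gated by markers (log2 ratio 0.16 against -1.14). Both endothelial-like values after TMZ lie inside the range of the 7 PDOXs without drug (272 to 801 CPM for Mt1, 125 to 428 CPM for Mt2). For Mt2 this rests on T101, without which the range ends at 205 CPM, below the value after TMZ.

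Genes around the metallothioneins were read from lists of metal handling and stress genes in astrocyte-like and myeloid-like cells. No member of any list was called by edgeR in either class, and at an unadjusted p under 0.05 there were 0 to 5 per list in astrocyte-like and 0 to 6 in myeloid-like cells (11.6% and 21.3% of all genes). The counts of genes higher in every PDOX are to be read against 14.3% and 12.9% of all genes. In myeloid-like cells, 4 of 16 tested genes of copper and iron handling were higher in every PDOX (median log2FC 0.84, beside 0.03 over all genes), 5 of 13 of NRF2 and glutathione (1.08), 3 of 11 of the glucocorticoid response (0.88), 3 of 15 of heat shock and dissociation (0.48) and 0 of 13 of zinc sensing and transport (0.09).

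Fth1, the iron-storing ferritin heavy chain, was at 709.5 CPM in myeloid-like cells of Nu-NB and at 7378 ± 2562 CPM (SD, n = 7) in the PDOXs (log2FC 3.57 ± 0.76, adjusted p = 0.0396 by edgeR). Atox1, a copper chaperone, was at 89.7 CPM and 654 ± 198 CPM (SD, n = 7), with a log2FC of 3.04 ± 0.64 and the same adjusted p of 0.0396 by edgeR. Ftl1, the ferritin light chain, was at 456 CPM and 901 ± 1651 CPM (SD, n = 7), higher in 2 of 7 PDOXs, and Trf, transferrin, at 269 CPM and 409 ± 186 CPM (SD, n = 7), higher in 5 of 7. Gpx1 and Prdx1, which remove peroxides, had log2FC values of 2.05 ± 0.53 and 2.63 ± 0.69, and Txn1, thioredoxin, one of 2.35 ± 0.63 (adjusted p = 0.0625, 0.064 and 0.0696 by edgeR). Fth1, Atox1, Gpx1, Prdx1 and Txn1 were each higher in 7 of 7 PDOXs. Slc40a1, the iron exporter, named after its values were seen, was lower in 7 of 7 (171 CPM against 62.1 ± 39.3 CPM, SD, n = 7). The zinc transporters with the highest mean level in the PDOXs, Slc30a9 and Slc39a10, had log2FC values of 0.12 ± 0.44 and 0.21 ± 0.64 (3 of 7 PDOXs higher for either).

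In astrocyte-like cells, 8 of 14 tested genes of NRF2 and glutathione were higher in every PDOX (median log2FC 0.40, beside -0.05 over all genes), 4 of 11 of copper and iron handling (0.80), 3 of 11 of heat shock and dissociation (1.35), 1 of 8 of the glucocorticoid response (1.20) and 0 of 9 of zinc sensing and transport (-0.02). Prdx6, Gstm1 and Prdx1 had log2FC values of 1.02 ± 0.54, 1.15 ± 0.52 and 1.14 ± 0.50, each with 6 of 6 PDOXs higher (adjusted p = 0.47, 0.413 and 0.409 by edgeR). Fth1 was at 323 CPM in Nu-NB and at 2056 ± 1418 CPM (SD, n = 6) in the PDOXs (log2FC 2.52 ± 0.79, adjusted p = 0.339 by edgeR). Sod1, the copper and zinc superoxide dismutase, lay the other way, at 325 CPM in Nu-NB and 211 ± 75.8 CPM (SD, n = 6), with 0 of 6 PDOXs higher (log2FC -0.68 ± 0.45, adjusted p = 0.564 by edgeR). Cox17, a copper chaperone of the mitochondria, was at 85.4 CPM against 195 ± 98.4 CPM (SD, n = 6), with 6 of 6 PDOXs higher (adjusted p = 0.556 by edgeR). Ftl1, the ferritin light chain, was at 108 CPM against 160 ± 279.7 CPM (SD, n = 6), with 2 of 6 PDOXs higher. Slc39a12, a zinc importer of astrocytes, was at 265 CPM in Nu-NB and 235 ± 109 CPM (SD, n = 6), with 3 of 6 PDOXs higher. Slc30a10, a zinc and manganese exporter, was at 199.9 CPM against 91.4 ± 37.7 CPM (SD, n = 6), with 0 of 6 PDOXs higher (log2FC -1.19 ± 0.49, adjusted p = 0.399 by edgeR). Klf9 and Nr3c1, the glucocorticoid receptor, had log2FC values of -0.15 ± 0.52 and -0.55 ± 0.45, and Nfkbia and Tsc22d3 of 1.34 ± 0.70 and 1.06 ± 1.04 (5 and 4 of 6 PDOXs higher; adjusted p between 0.463 and 0.941 by edgeR for these 4).

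Over 56 sums of a sample and a class, the genes with the pattern most like each member were named by Pearson's r of log2(CPM + 10), among 3900 genes. For Mt1 they were Mt2 (0.82), Fam107a (0.75), Plcd4 (0.74), Gstm1 (0.74) and Mlc1 (0.73). For Mt2 they were Mt1 (0.82), Cpe (0.80), Lxn (0.78), Mgst1 (0.77) and Sox9 (0.76). For Mt3 they were Clu (0.90), Gpm6a (0.86), Itgb8 (0.85), Ntrk2 (0.84) and Ldhb (0.84), and neither Mt1 nor Mt2 was among its 5. Sums of a sample share a library, and sums differ in depth. Over the 7 astrocyte-like sums alone, the genes most like Mt1 included Sparc (0.99), Cox4i1, Timm13 and Actb (0.98 each). Mt2 was most like C4b (0.99), Pabpc1, Timm8b, Rps21 and Prdx2 (0.98 each), and Mt3 most like Rpl37a (0.96), Hdgf (0.96), Rpl37 (0.95), Rpl23 (0.95) and Ppp1ca (0.95).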

How the data were processed

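Mouse cells of 9 samples were measured by Drop-seq. The authors deposited raw UMI counts per gene and cell barcode, unnormalized, and the submitters' processing notes name bcl2fastq 2.0, STAR and the builds mm10 and GRCm38. Their settings are not given in the sources used here.

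Groups came from the sample labels. A cell needed 200 detected genes and no more than 30% of mitochondrial UMIs, and in each sample the top 5% of cells by doublet score were dropped. On 2000 variable genes, 30 components and 20 neighbors were used for Leiden clustering at resolution 1 (scanpy 1.11.5, leidenalg 0.10.2, Python 3.11.15), giving 22 clusters. A cluster was named from its markers, by a rule set after the clusters and the metallothionein levels had been seen. The members and lists were chosen with earlier results of these data known. Genes of the lists named in the text are the 4 with the highest mean level per list, of which some are printed, except genes of the dissociation list and Slc40a1, named after their values were seen. Genes like a member are the 5 with the highest r. A few genes that these rules or the astrocyte panel hold are not reported here by name.

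Counts were summed per class and sample (at least 10 cells) and tested with edgeR 4.0.16 in R 4.3.3 (quasi-likelihood, TMM, Benjamini-Hochberg adjustment), with DESeq2 1.42.0 as an alternative. Class differences were tested on log2 CPM by exact sign flips. Shares were read at 500 UMIs per cell. The tests were tested on simulated data. Alternatives changed the scaling, filters, doublets, clusters, depth and samples. Mt4 entered no comparison.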

Additional observations from a re-analysis of the deposited data

Results flagged for a closer look

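Of 21 groups of 4 to 7 PDOXs examined for a sample far from the others, 2 held one, and chance flags about 1 in 20. Mt1 in OPC-like cells was at 1137 CPM in T192 (15 cells), against 346 to 595 CPM in the other PDOXs. Mt2 in endothelial-like cells was at 428 CPM in T101, against 125 to 205 CPM in the other PDOXs.

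A further 3 signals lay outside the comparisons. Mt4, the neighbor of Mt3 on chromosome 8, is listed in 7 files with 1345 UMIs over all barcodes, between 13.4 and 271 CPM of all UMIs in a file. Mt3 was at 1714 CPM in the unnamed cluster 6 (1010 cells) and at 850.1 CPM in the unnamed cluster 9 (684 cells, 648 of them from T101). In these clusters Mt3 exceeded Mt2 (529 and 531 CPM), and Mt2 exceeded Mt1 (418 and 306 CPM). No explanation was tested.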

How the results depend on the processing

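With 1 normal brain, its own spread is unknown, and low UMI counts limit Mt2 and Mt3 outside astrocyte-like cells. No paired analysis was possible because replicate numbers only follow the order of the samples, for PDOXs against Nu-NB and for TMZ; classes were compared within each PDOX. P8 against Nu-NB alone was added after seeing the data. Of 288 values for PDOXs against Nu-NB, 259 kept their direction and side of the threshold (for a count of genes, stayed within 1.5 times). For P8 alone, only the direction was judged. Among values for classes, 66 of 144 kept direction and side of the threshold. For shares, 123 of 144 medians moved by less than the SD between PDOXs, as did 147 of 160 for free RNA. For TMZ, 27 of 30 log2 ratios stayed inside the interval of counting error. The causes of the changes below were not tested unless stated.

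Genes called in astrocyte-like cells (0) came to 1 with DESeq2, 24 with no filter and 7 at most 10% mitochondrial UMIs, and to 0 to 7 without single PDOXs (7 without P8, 4 without T192). In myeloid-like cells (8) they came to 199 with DESeq2, 2 at 500 detected genes, 0 with gated cells and 4 at resolution 2, and to 2 to 135 without single PDOXs (135 without P8, 2 without T101, T192 or T233, 5 without P3, 3 without P13). In endothelial-like cells (0), DESeq2 called 2. Mt1 in myeloid-like cells passed the threshold with DESeq2 (log2FC 3.36) and without P8, with 3.34 to 3.51 without single PDOXs. In endothelial-like cells, Mt1 turned to -0.0761 with DESeq2, -0.077 with RLE factors, -0.43 with library totals, -0.33 at most 10% mitochondrial UMIs, -0.0104 at resolution 2, and -0.0051 to 0.27 without single PDOXs. Mt2 there turned to 0.44 with 10% doublets left out and ranged from -0.22 to 0.10 without single PDOXs. In mural-like cells, Mt1 (3.68) fell to 3.12 with RLE factors and 2.53 with library totals, and Mt3 (-0.44) to -1.04 and -1.59. In choroid plexus-like cells, Mt1, Mt2 and Mt3 (1.69, 2.41 and 0.68) fell to 0.90, 1.62 and 0.0311 with library totals. Mt2 in myeloid-like cells moved from 3.12 to 8.63 at 500 detected genes, where Nu-NB held no UMI of it. Mt3 turned to -0.30 in choroid plexus-like cells with gated cells and to -0.60 in myeloid-like cells for P8 alone.

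Leaving out 1 PDOX ended each class call, since 5 allow no p below 0.0625. The astrocyte-like excess of Mt1 then was 3.44 to 3.67 over OPC-like, 3.39 to 3.77 over endothelial-like, 3.66 to 4.28 over mural-like and 3.42 to 3.62 over myeloid-like cells. For Mt2 it was 3.67 to 4.003, 3.33 to 3.69, 4.44 to 5.33 and 5.10 to 5.45, and for Mt3 2.46 to 2.71, 6.65 to 7.27, 3.96 to 4.38 and 4.65 to 5.39. With 5 PDOXs left, gated cells gave 2.83, 3.37 and 2.79 over OPC-like cells, and resolution 2 gave 5.24, 5.50 and 4.25 over mural-like cells, for Mt1, Mt2 and Mt3.

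Shares follow depth, and those given here are medians over PDOXs, not shares of pooled cells as in the results. At 300 UMIs, Mt1 was in 73.0% of astrocyte-like and 14.6% of myeloid-like, Mt2 in 6.58% of endothelial-like and Mt3 in 5.65% of OPC-like cells. At 1000 UMIs, Mt1, Mt2 and Mt3 were in 96.2%, 77.8% and 88.9% of astrocyte-like and 28.2%, 13.2% and 1.89% of endothelial-like cells, Mt1 and Mt2 in 38.4% and 3.63% of myeloid-like, and Mt1 and Mt3 in 34.0% and 20.3% of OPC-like cells. Without thinning they were in 27.9%, 12.4% and 1.5% of endothelial-like and 32.6%, 4.89% and 5.41% of myeloid-like cells. Gated astrocyte-like cells gave 62.3% for Mt1.

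With the low barcodes as reference, Mt3 and the panel were at 106% and 53.9% in OPC-like, 4.71% and 7.24% in endothelial-like, 29.8% and 45.8% in mural-like and 20.8% and 19.6% in myeloid-like cells. With gated cells, the panel was at 17.4% in OPC-like and 19.3% in mural-like cells, the ratio of Mt1 to Mt3 at 41.8 in endothelial-like and 1.25 in mural-like cells, and that of Mt2 to Mt3 at 13.8 in endothelial-like cells. For TMZ, the log2 ratio of Mt1 in mural-like cells moved to -0.28 with 10% doublets left out and to 0.16 with gated cells, and that of Mt3 in myeloid-like cells turned from 1.34 to -1.33 with gated cells.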
